A study of Mus musculus with 4 samples.

Results

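The mitosis genes described here are a list of 56 genes whose products enter a cell into mitosis, condense and align its chromosomes, run the spindle checkpoint and divide the cell. Members were found by gene name: a feature (a spot on the array) counted where its annotated symbol was the current name of a member or an older name that points to that member alone. This gave 86 features for 55 members, of 19909 named genes measured in all. Ccnb1 (cyclin B1) had no such feature and was not analysed here. A feature annotated Aim1 was not used for Aurkb, because that older name belongs to several genes.

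Expression was measured in cerebella dissected at P0, the day of birth, from C57Bl/6 mice with a conditional knockout of Smarca5 (labelled Smarca5 cKO) and from wild type mice of the same strain. Smarca5 encodes Snf2h, an ISWI chromatin remodelling ATPase. Each of 4 arrays carried both genotypes in different dyes, so each value is a ratio between them. It was taken here as the log2 ratio of cKO over wild type, which no label states. The ratios came from 3 RNA samples per genotype, with the same wild-type sample on replicates 1 and 4 and the same cKO sample on replicates 3 and 4. The cKO RNA was in Cy5 on replicates 1 and 3 and in Cy3 on replicates 2 and 4. The labels name neither the driver of the deletion nor the cells it acts in, and they do not say whether an RNA sample pooled animals. Dissected tissue holds many cell types, so fewer dividing cells and less RNA per dividing cell cannot be told apart. The arrays give no levels, so cerebellar markers could not be checked for presence and precision is limited by having 4 arrays.

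The newborn cerebellum is a strongly dividing tissue, in which granule cell progenitors of the external granular layer go through repeated mitoses. Most mitosis genes are transcribed in a wave before and during mitosis and are silent in resting cells. In textbook accounts the DREAM complex represses them in resting cells, and the MuvB core with B-Myb (Mybl2) and Foxm1 activates them in dividing cells. Much of this control runs through a promoter element called the cell cycle genes homology region (CHR) and through CCAAT boxes, which bind NF-Y.

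The CHR was searched as TTTGAA and the CCAAT box as CCAAT, each on both strands, in RefSeq windows (GRCm38.p6) from 250 bases before to 50 bases after a gene start. Windows were given for 46 of the 56 members, 50 windows in all. TTTGAA was in 35 of these 50 windows (70.0%), against 5878 of all 32851 windows (17.9%). CCAAT was in 38 of the 50 windows (76.0%), against 37.4% of all windows. Both motifs were in 31 member windows (62.0%), against 6.95% of all. At least 2 CCAAT boxes were in 25 of the 50 member windows (50%), against 11.7% of all, and the 2 motifs overlapped at 1 place in the member windows. By gene, 32 of 46 members had TTTGAA, and in 28 of them it lay within 50 bases of a start, before or after it. All 6 cytokinesis members with a window had it, as did 5 of 6 for condensin and chromosome structure, 8 of 12 for the spindle, 5 of 8 for mitotic entry, 5 of 8 for the checkpoint and 3 of 6 for the kinetochore and passenger complex. These shares describe letters in a window and show no binding. The stretches below, the 110 bases before the start, show how the motifs lie in 6 members from 5 of the steps. No rule set which members are shown, and all 6 have TTTGAA before the start. They do not stand for the other members: in Aurka, Plk1, Bub1b, Ttk, Hmmr and Kif4, among others, TTTGAA lay only after the start. They are those of Cdk1 (chr10:69352913-69353022, minus strand), Cdc20 (chr4:118437344-118437453, minus strand), Ube2c (chr2:164769819-164769928, plus strand), Kif11 (chr19:37376272-37376381, plus strand), Top2a (chr11:99024190-99024299, minus strand) and Prc1 (chr7:80294366-80294475, plus strand), written 5′ to 3′, and capitals mark both motifs and their reverse complements.
Cdk1: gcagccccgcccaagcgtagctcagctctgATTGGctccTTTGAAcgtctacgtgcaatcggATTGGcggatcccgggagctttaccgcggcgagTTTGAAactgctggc
Cdc20: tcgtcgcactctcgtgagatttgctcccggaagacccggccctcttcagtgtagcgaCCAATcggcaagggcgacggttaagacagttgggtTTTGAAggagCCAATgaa
Ube2c: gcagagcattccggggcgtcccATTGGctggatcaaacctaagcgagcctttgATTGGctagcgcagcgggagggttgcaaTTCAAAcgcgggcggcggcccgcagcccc
Kif11: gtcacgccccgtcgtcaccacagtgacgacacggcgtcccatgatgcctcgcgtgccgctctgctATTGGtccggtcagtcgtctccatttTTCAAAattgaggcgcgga
Top2a: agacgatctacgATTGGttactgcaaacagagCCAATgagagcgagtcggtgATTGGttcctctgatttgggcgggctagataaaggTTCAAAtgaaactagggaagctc
Prc1: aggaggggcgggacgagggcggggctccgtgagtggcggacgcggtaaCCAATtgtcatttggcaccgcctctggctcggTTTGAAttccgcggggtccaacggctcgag
In Cdk1 and Top2a, CCAAT boxes stood upstream of a TTTGAA close to the start, and Ube2c, Kif11 and Prc1 had the same order. Cdc20 had 1 CCAAT box on each side of its TTTGAA.

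**Figure D1:**
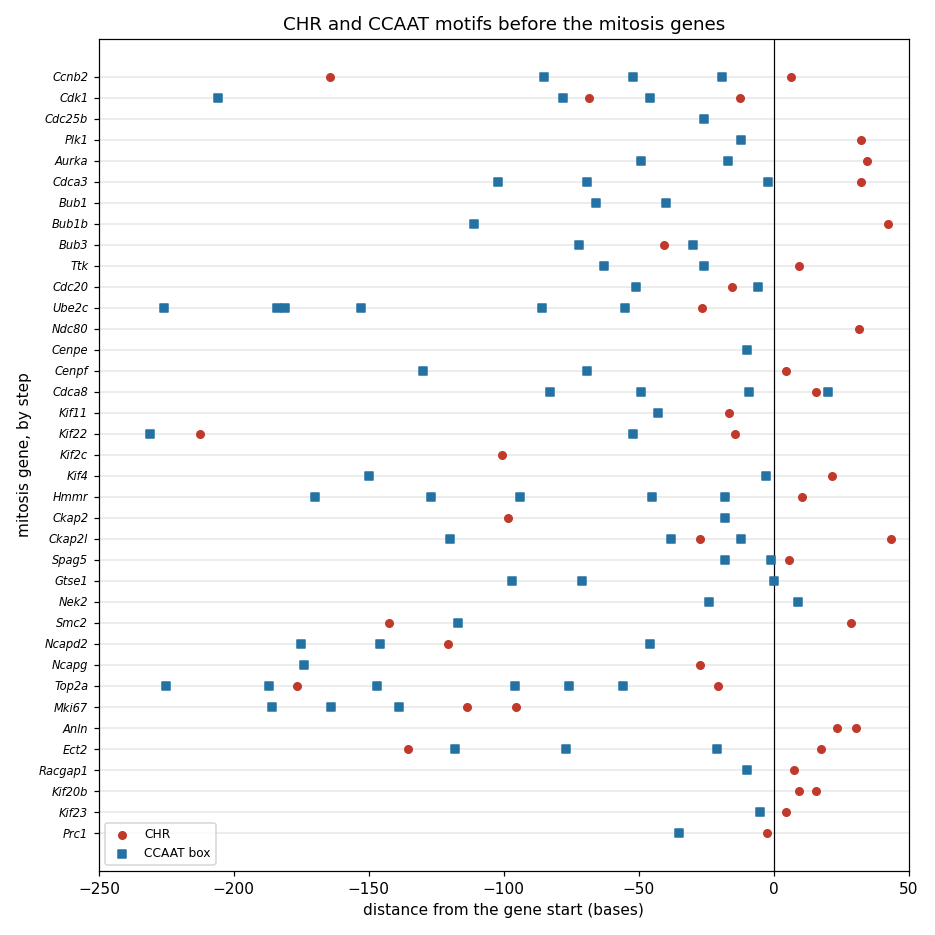
Positions of CHR (TTTGAA, circles) and CCAAT (squares) motifs relative to the gene start, in bases, for the measured mitosis genes with at least 1 motif, with 1 row per gene in the order of the steps and 1 window where a gene has several. TTTGAA lies within 50 bases of a start, before or after it, in 28 of the 32 members that have it. In genes such as Kif11 and Top2a CCAAT boxes lie upstream of it.

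Checks of the series as a whole came first. The feature named Smarca5 lay below 0 on all arrays, at -0.36, -1.16, -1.43 and -0.75 on replicates 1 to 4, and a feature under an older name of Smarca5 lay above 0 on all of them, with a mean of 0.23 ± 0.21 (SD, n = 4). Averaged over both features, Smarca5 had a fitted ratio of -0.42 ± 0.23 (SE, limma p 0.118). The feature under the current name alone had -0.98 (limma p 0.0122, with 0 genes called under that setting), so the label was checked only in part. No label states which genotype is on top of the ratio. Reading it as cKO over wild type is likely, since the samples are named for the cKO and its RNA is the second channel of every array. Of the 52 features beyond 4 in size on every array, 52 changed sign with the dye orientation and 0 kept 1 sign. Intensities were not used, so whether these features are bright in a single dye was not measured. On replicate 1, 6 Hox genes of the hindbrain behind the cerebellum had a median ratio of 2.6, against -0.19, -0.58 and -0.575 on replicates 2 to 4. The part of this Hox signal in the ratios of the mitosis genes was not tested.

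No mitosis gene passed the test. Limma with Benjamini-Hochberg adjustment over all 19909 genes called 0 members higher and 0 lower in cKO, and the share called over all genes was 0% in each direction. An unadjusted limma p under 0.05 was reached by 0 of 55 members, against 1.56% of all genes, and the lowest was 0.145 (Cenpe). The fitted ratios of the members had a median of -0.03 and ran from -0.65 (Kif20a) to 0.43 (Cenpe), with 33 members below 0 (60.0%), where the median over all genes was -0.004 and 50.9% lay below 0. This fitted ratio equals the mean of replicates 1 to 3, which holds cKO in Cy5 on 2 arrays and in Cy3 on 1, because the fit gives replicate 4 no weight. In the plain mean of all 4 arrays, where a dye effect cancels, the median over the members was -0.07 and 36 of 55 lay below 0 (65.5%), against 50.1% of all genes. Only Bub1b lay below 0 on all 4 arrays (1 of 55, against 5.72% of all genes) and only Gtse1 above 0 on all 4 (1 of 55, against 5.92%). The sign of the fitted ratio turned in 33 of the 55 members when 1 array was left out: in 15 without replicate 1, in 11 without replicate 2, in 18 without replicate 3 and in 0 without replicate 4, which has no weight. This count was not made over all genes, so it does not set the members apart.

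The intervals bounded the size of the fitted ratios more tightly than their sign. They bound the ratios of these features and may miss a true change. The interval of the deleted gene, Smarca5, ran from -0.98 to 0.14 and so left out a 2-fold fall as well. For 42 of the 55 members the 95% interval of the fitted ratio lay within a 2-fold change in both directions, against 60.8% of all genes. A 2-fold fall lay outside the interval for 48 of 55 members, against 15220 of all 19909 genes. For a 2-fold rise these counts were 47 and 15236. The members with wider intervals were Ccnb2, Plk1, Cdca3, Mad2l1, Ube2c, Ndc80, Nuf2, Cenpe, Cenpf, Kif2c, Kif4, Mki67 and Kif20a. A fitted size of at least 1.5-fold was reached by Kif20a alone (1 of 55, against 7.64% of all genes). The median SD over the 4 arrays was 0.36 for the members and 0.39 for all genes.

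**Figure D2:**
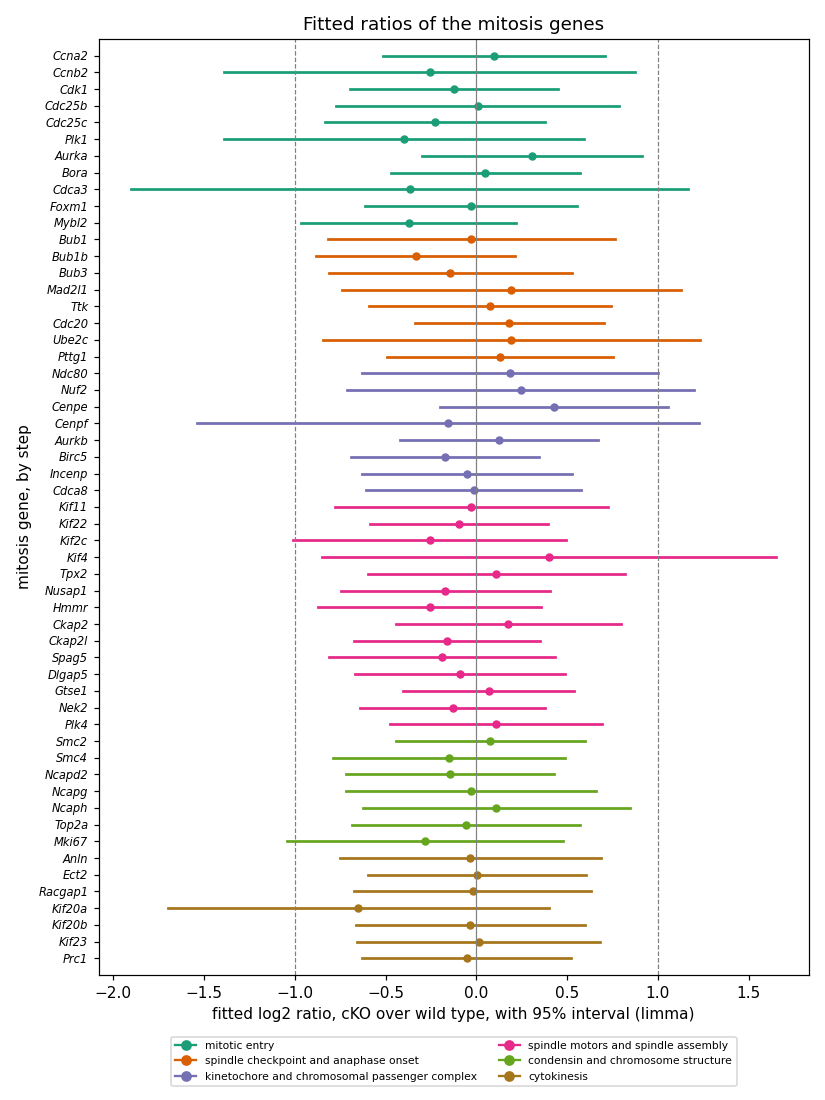
Fitted log2 ratio of cKO over wild type (points) with its 95% limma interval (lines) for the 55 measured mitosis genes, coloured by step, with dashed lines at a 2-fold change. Every interval includes 0, and 42 lie between the dashed lines.

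Genes of mitotic entry had a median fitted ratio of -0.125 over 11 measured members, 7 below 0 and 4 above, and 0 passed. The median was 0.044 without replicate 1. The group holds the cyclins, the kinase Cdk1, the phosphatases that switch it on, and its upstream kinases and transcription factors. Cdk1, the kinase that drives cells into mitosis, had ratios of -0.445, 0.315, -0.245 and -0.295 on replicates 1 to 4 (fitted -0.125 ± 0.23 SE, limma p 0.610). Its ratio was thus below 0 on 3 arrays and above 0 on replicate 2. Mybl2, the B-Myb factor of the activating MuvB complex, had -0.425, -0.785, 0.09 and -0.195 (fitted -0.37 ± 0.24 SE, limma p 0.174). Foxm1, its partner factor, had 0.04, 0.19, -0.32 and 0.19 (fitted -0.03 ± 0.24 SE, limma p 0.904), a sign that changed in 4 of the 11 alternatives run. Neither factor had 1 sign on all arrays.

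The mitotic kinases of this group pointed different ways. Aurka, the spindle pole kinase that activates Plk1, had 0.71, 0.34, -0.13 and 0.09 on replicates 1 to 4 (fitted 0.31 ± 0.25 SE, limma p 0.261). Plk1, a kinase of entry, spindle and cytokinesis, had -1.13, -0.15, 0.085 and 0.305 (fitted -0.40 ± 0.40 SE, limma p 0.361). The low value of Plk1 came from replicate 1, and there from 1 of its 2 features, at -2.48 where the other had 0.22. Without that array the fitted ratio of Plk1 was 0.047. Cdca3, an adaptor that promotes the loss of the Cdk1 inhibitor Wee1, also read far lower on replicate 1, at -2.26, than on the other arrays, where it lay between -0.22 and 0.59, and its fitted ratio was -0.37 with that array and 0.35 without it. Ccnb2 (cyclin B2) was the member lowest on replicate 4, at -1.42, and read -1.06 on replicate 1 but 0.04 and 0.25 on replicates 2 and 3. The other entry members, Ccna2, Cdc25b, Cdc25c and Bora, had fitted ratios from -0.23 to 0.10.

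The spindle checkpoint delays anaphase until every chromosome is attached, by holding back Cdc20, the activator of the anaphase-promoting complex. Its 8 members had a median fitted ratio of 0.10, with 3 below 0 and 5 above, and 0 passed. The checkpoint kinase-like gene Bub1b (BubR1) had -0.15, -0.71, -0.14 and -0.25 on replicates 1 to 4 (fitted -0.33 ± 0.22 SE, limma p 0.186). All 4 of its values were below 0, most of all on replicate 2. Bub1, the kinase that recruits checkpoint proteins, had -0.02, 0.07, -0.13 and -0.83 (fitted -0.03 ± 0.32 SE, limma p 0.936), so that only replicate 4 was far from 0. Bub3, the partner of both, had 0.23, -0.16, -0.50 and 0.31 (fitted -0.14 ± 0.27 SE, limma p 0.617, and 0.086 without replicate 3). Cdc20, the target of the checkpoint, had 0.337, 0.333, -0.123 and 0.033 (fitted 0.18 ± 0.21 SE, limma p 0.422). The other 4 were Mad2l1, Ttk, Ube2c (the ubiquitin-conjugating enzyme of the anaphase-promoting complex) and Pttg1 (securin), with fitted ratios from 0.07 to 0.19. The step's median depended on which arrays were used: it was -0.05 in the mean of all 4 arrays, -0.089 without replicate 1 and -0.078 without replicate 3.

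At the kinetochore, where microtubules grip the chromosome, and in the chromosomal passenger complex, which corrects faulty attachments, the 8 members had a median fitted ratio of 0.05, with 4 below 0 and 4 above, and 0 passed. Without replicate 2 the median was -0.10. Cenpe, a kinetochore motor, had the highest fitted ratio of all members, 0.43 ± 0.25 (SE, limma p 0.145), with 0.413, 0.78, 0.093 and -0.113 on replicates 1 to 4. It was above 0 on 3 arrays and below 0 on replicate 4. Nuf2, a subunit of the microtubule-binding Ndc80 complex, had -0.45, 0.46, 0.72 and -0.65 (fitted 0.24 ± 0.39 SE, limma p 0.553, and -0.12 without replicate 3). Aurkb, the kinase of the passenger complex, had 0.09, -0.12, 0.40 and 0.46 (fitted 0.12 ± 0.22 SE, limma p 0.598), while Birc5 (survivin), another subunit, had -0.387, 0.127, -0.26 and -0.297 (fitted -0.17 ± 0.21 SE, limma p 0.442). The remaining passenger subunits, Incenp and Cdca8, had fitted ratios of -0.05 and -0.015, so the complex's subunits did not share a sign. The microtubule-binding subunit Ndc80 had a fitted ratio of 0.19, which was -0.27 without replicate 2. The kinetochore protein Cenpf had -0.16, which was 0.48 without replicate 1 and 0.12 without replicate 3.

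**Figure D3:**
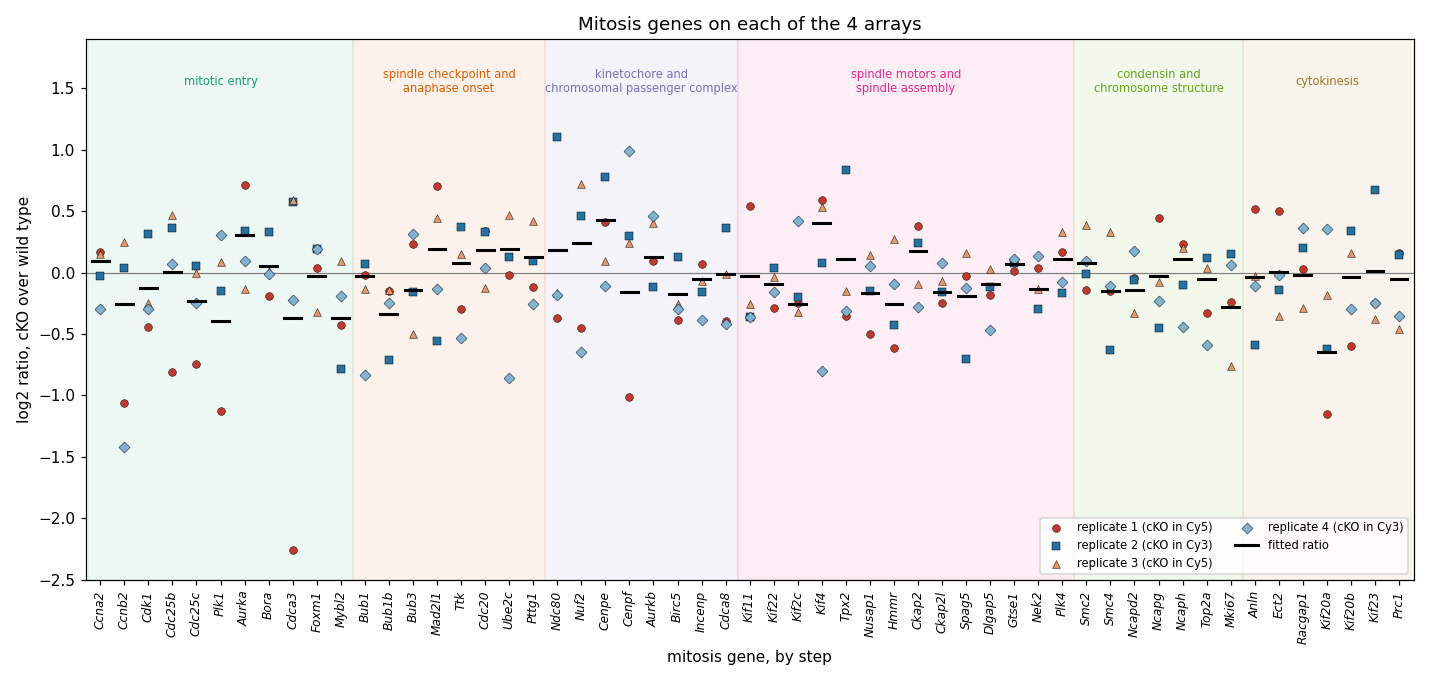
Log2 ratio of cKO over wild type for each of the 55 measured mitosis genes on each array (symbols, by replicate and dye orientation) and the fitted ratio (black bars), grouped by step. Most values lie within 1 of 0, and Bub1b and Gtse1 are the members with the same sign on all 4 arrays.

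Spindle motors and assembly factors had a median fitted ratio of -0.09 over 14 members, with 9 below 0 and 5 above, and 0 passed. Hmmr, a microtubule-associated protein of spindle poles, had -0.615, -0.43, 0.275 and -0.095 on replicates 1 to 4 (fitted -0.26 ± 0.25 SE, limma p 0.343). Kif2c, a kinesin that takes microtubules apart at centromeres, had -0.25, -0.20, -0.32 and 0.42 (fitted -0.26 ± 0.31 SE, limma p 0.434). Kif4, a chromosome-bound kinesin, had 0.59, 0.075, 0.535 and -0.80 (fitted 0.40 ± 0.51 SE, limma p 0.462). In both kinesins replicate 4 went against the other arrays. The interval of Kif4 ran from -0.85 to 1.65, and its fitted ratio was -0.044 without replicate 1 and -0.028 without replicate 3. Gtse1, a microtubule-binding protein that also acts on p53, stayed closest to 0, at 0.01, 0.075, 0.12 and 0.11. These are means of 2 features that each changed sign between arrays. One had 0.26, 0.30, 0.21 and -0.06, and the other -0.24, -0.15, 0.03 and 0.28. The other 10 were the bipolar spindle motor Kif11, the chromosome arm motor Kif22, the assembly factor Tpx2, the centriole kinase Plk4, the centrosome kinase Nek2, and the microtubule-associated Nusap1, Ckap2, Ckap2l, Spag5 and Dlgap5. Their fitted ratios ran from -0.19 to 0.18.

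Condensin and other chromosome structure genes had a median fitted ratio of -0.06 over 7 members, with 5 below 0 and 2 above, and 0 passed. Without replicate 2 the median was 0.09, and the fitted ratio of Smc4 was 0.09 too. Mki67, the proliferation marker Ki-67 that coats mitotic chromosomes, had -0.243, 0.153, -0.758 and 0.058 on replicates 1 to 4 (fitted -0.28 ± 0.31 SE, limma p 0.397), and 0.013 without replicate 3. Top2a, the topoisomerase that untangles sister chromatids, had -0.33, 0.12, 0.04 and -0.59 (fitted -0.06 ± 0.26 SE, limma p 0.832). The low arrays of Top2a were replicates 1 and 4, and those of Mki67 replicates 1 and 3. Among condensin subunits, the ATPase Smc4 had -0.15, -0.63, 0.33 and -0.11 (fitted -0.15 ± 0.26 SE, limma p 0.584) and Ncapd2 -0.045, -0.06, -0.33 and 0.175 (fitted -0.145 ± 0.23 SE, limma p 0.556, and 0.011 without replicate 3). The subunits Smc2, Ncapg and Ncaph had fitted ratios from -0.03 to 0.11.

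Cytokinesis genes had a median fitted ratio of -0.03 over 7 members, with 5 below 0 and 2 above, and 0 passed. Without replicate 3 the median was 0.0057. Kif20a, a kinesin of the central spindle, had the lowest fitted ratio of all members, -0.65 ± 0.43 (SE), or 1.57-fold lower in cKO (limma p 0.179), with -1.15, -0.62, -0.18 and 0.35 on replicates 1 to 4. It was below 0 on 3 arrays and above 0 on replicate 4, and without replicate 1 its fitted ratio was -0.22. Without replicate 4 its limma p was 0.0458 (adjusted p 0.981), the only member and setting with an unadjusted p under 0.05. Prc1, which bundles the microtubules of the central spindle, had 0.16, 0.14, -0.46 and -0.35 (fitted -0.05 ± 0.23 SE, limma p 0.827), and 0.0057 without replicate 3. Kif20b, a related kinesin, had -0.60, 0.34, 0.16 and -0.30 (fitted -0.03 ± 0.26 SE, limma p 0.900), and 0.11 without replicate 1. Anln, Ect2, Racgap1 and Kif23, which build and position the contractile ring, had fitted ratios from -0.03 to 0.01.

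Features of the same member often disagreed. Of the 55 members, 33 had a single feature, 14 had 2, 7 had 3 and Mki67 had 4. Among the 22 members with several features, the features' means over the 4 arrays were on 1 side of 0 in 6 (27.3%), against 42.9% of the 6685 genes with several features. The median range between a gene's features was 0.39 for these members and 0.28 for all such genes. Mki67 had the widest range, 1.24, with feature means of -0.798, -0.268, -0.168 and 0.443. Hmmr had features at -0.628 and 0.195, and Cdk1 at -0.44 and 0.105. Across the 4 arrays, pairs of features of the same member correlated with a median Pearson r of -0.14 over 41 pairs, against 0.04 over 38091 pairs of all genes, as a description of features that share arrays and dyes.

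**Figure D4:**
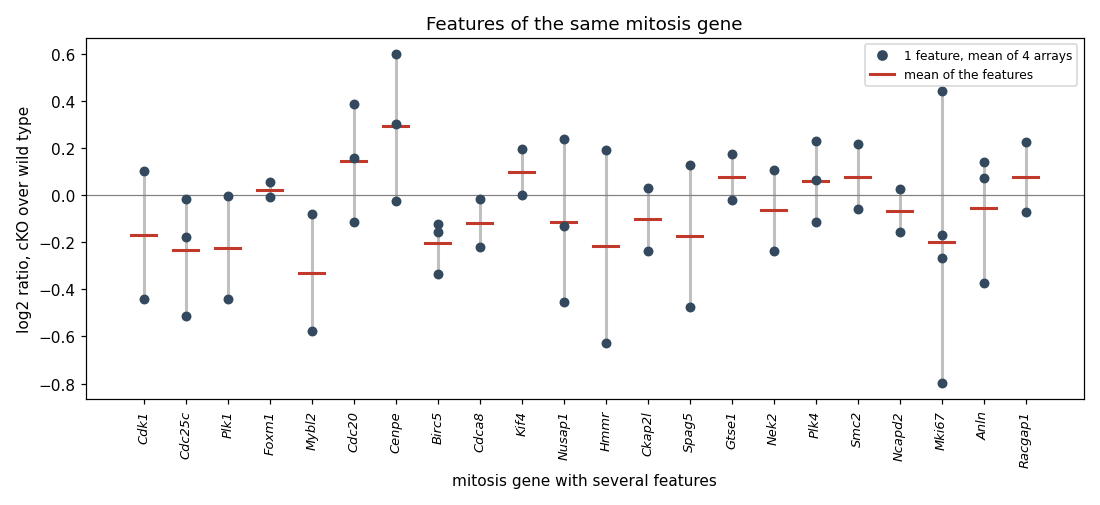
Mean log2 ratio of cKO over wild type over the 4 arrays for each feature (points) of the 22 mitosis genes with several features, with the mean of the features (red bars). Features of a gene lie on 1 side of 0 in 6 of the 22 genes, and those of Mki67 are farthest apart.

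Between arrays, the median ratio of the 55 members was -0.15 on replicate 1, 0.06 on replicate 2, -0.003 on replicate 3 and -0.16 on replicate 4, where the median of all genes lay between 0 and 0.01. Members below 0 numbered 34, 25, 28 and 37 on these arrays. The lower medians were on the 2 arrays that carry the same wild-type sample, one of each dye orientation. This grouping by RNA sample was made after the values were seen and has no test. The mean of replicates 1 and 4 was below that of replicates 2 and 3 in 33 of 55 members (60.0%), against 50% of all genes, with a median difference of -0.155. It was lower in 7 of 8 kinetochore and passenger genes (median difference -0.28) and in 8 of 11 entry genes (-0.38), but in 2 of 7 cytokinesis genes (0.07) and 3 of 7 chromosome structure genes (0.02). Granule cell progenitor markers showed the same split, with medians of -0.34 and -0.4575 on replicates 1 and 4 and -0.145 and -0.16 on replicates 2 and 3 (14 genes, 12 with a fitted ratio below 0, 3 below 0 on all 4 arrays). In other marker lists the mean of replicates 1 and 4 differed too, but replicate 1 alone stood apart. This mean was lower in 6 of 8 Purkinje cell genes (median difference -0.28), where the medians on replicates 1 to 4 were -0.26, 0.055, 0.035 and 0.07. It was lower in 0 of 6 oligodendrocyte lineage genes (0.33), with medians of 0.475, -0.145, -0.18 and 0.01. For the Hox genes it was lower in 0 of 6 (1.25), with medians of 2.6, -0.19, -0.58 and -0.575. In each of these lists replicate 4 lay nearer to replicates 2 and 3 than to replicate 1. The part of these cell types in the values of the mitosis genes was not tested. For arrays with the shared cKO sample (replicates 3 and 4) the mean was lower than that of replicates 1 and 2 in 31 of 55 members (56.4%), against 49.4% of all genes.

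By dye orientation, the members' median was -0.1275 with cKO in Cy5 and -0.08 with cKO in Cy3, against -0.005 and 0 for all genes. The dye component of a member, 0.5 times the difference between the means of both orientations, was larger than the mean of the 4 arrays in 31 of 55 members (56.4%), against 51.5% of all genes. Across the 55 members, the arrays that shared no RNA sample correlated at Pearson r between -0.23 and -0.02. Across all genes their r lay between -0.09 and 0.05. Arrays that shared a sample did not correlate more. Replicates 1 and 4 gave -0.04 for the members and 0.01 for all genes, and replicates 3 and 4 gave -0.24 and -0.04. Both of these pairs had opposite dye orientation. The pairs of opposite orientation without a shared sample were replicates 1 and 2 and replicates 2 and 3. They gave -0.19 and -0.02 for the members and -0.09 and -0.007 for all genes. The correlation of 0.5 that the fit sets between arrays sharing a sample was thus not seen across genes. The part of dye orientation in this was not tested.

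**Figure D5:**
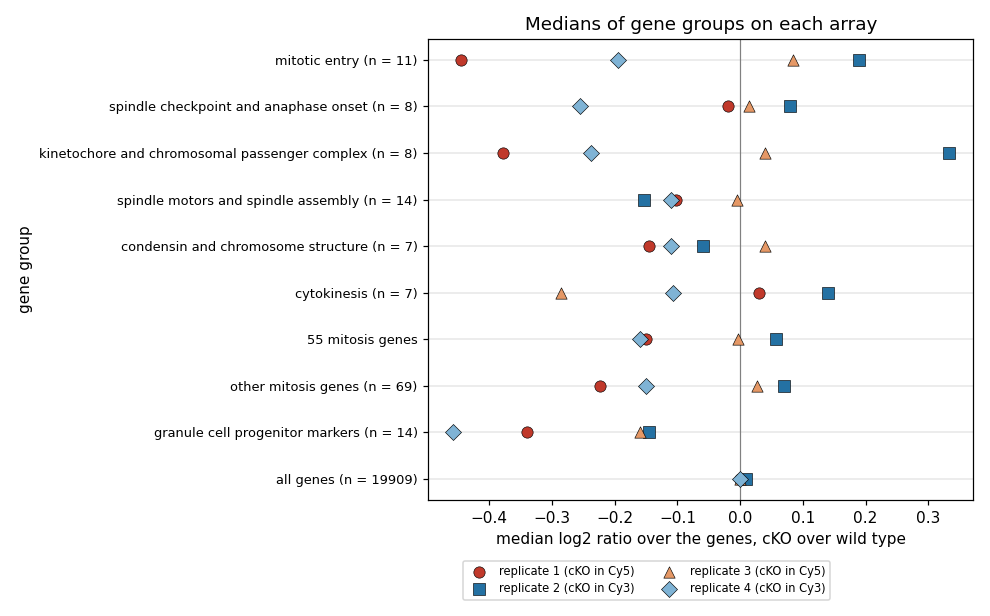
Median log2 ratio of cKO over wild type on each array (symbols, by replicate and dye orientation) for the steps of mitosis, the 55 mitosis genes, 69 other mitosis genes, 14 granule cell progenitor markers and all genes. Replicates 1 and 4, which carry the same wild-type sample, lie left of replicates 2 and 3 for mitotic entry, the checkpoint, the kinetochore group, chromosome structure, the 55 genes together, the other mitosis genes and the progenitor markers. This holds for group medians. Gene by gene, the mean of replicates 1 and 4 was the lower one in 4 of 8 checkpoint genes and 3 of 7 chromosome structure genes.

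Other genes of mitosis outside the list, chosen by role, gave a like picture. Of 70 listed, 69 were measured, 0 were called higher and 0 lower, and 0 had an unadjusted limma p under 0.05 in the reported fit. Their fitted ratios had a median of -0.04, with 39 of 69 below 0, and ran from -0.87 to 0.38. Their medians were -0.22, 0.07, 0.03 and -0.15 on replicates 1 to 4, and the mean of replicates 1 and 4 was below that of replicates 2 and 3 in 50 of 69 genes (72.5%). Spc25, a subunit of the Ndc80 complex, was below 0 on all 4 arrays, at -0.40, -0.48, -0.46 and -0.86 (fitted -0.45 ± 0.24 SE, limma p 0.113). Sgo2a, a shugoshin that protects centromeric cohesion, was as well, at -0.79, -0.22, -0.17 and -0.55 (fitted -0.39 ± 0.22 SE, limma p 0.131). The unadjusted limma p of Spc25 was 0.0119 with arrays taken as independent, 0.0430 with a dye term and 0.0468 without replicate 4, and that of Sgo2a was 0.0441 with independent arrays. The same settings put 5%, 3.12% and 4.69% of all genes under 0.05, and the lowest adjusted p of these 69 genes in any setting was 0.977. Ccnf (cyclin F) lay above 0 throughout, at 0.38, 0.20, 0.12 and 0.19 (fitted 0.23 ± 0.20 SE, limma p 0.280). The condensin II subunit gene Ncapd3 had -2.32, -0.27, -0.01 and -0.86 (fitted -0.87 ± 0.48 SE, limma p 0.122), which was -0.36 without replicate 1. Lin52, a subunit of the MuvB core, had -1.59, -0.66, 0.12 and 0.45 (fitted -0.71 ± 0.53 SE, limma p 0.230), and the spindle gene Fam83d had 0.37, 0.54, 0.06 and -0.56 (fitted 0.32 ± 0.33 SE, limma p 0.371). Without replicate 1 the ratio of Lin52 was -0.12. In all, 5 of the 69 were below 0 on all 4 arrays (5.72% of all genes) and 1 above 0 (5.92%).

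Members were also set apart by the promoter motif. The 32 measured members with TTTGAA in a window had a median fitted ratio of -0.04, between -0.40 and 0.40. The 13 with a window but without TTTGAA had a median of 0.07, between -0.37 and 0.43. The ranges of both sets overlapped.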

How the data were processed

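Total RNA was labelled with a Genisphere 3DNA kit and hybridised to 2-colour arrays, per the labels. For every feature and array the authors' deposited value is a log ratio, taken here as a log2 ratio. No label gives the normalization or the log base, and without intensities dim features could not be left out. The authors' columns were taken as cKO over wild type. The platform annotation gave 1 symbol to 30457 of 38880 features. Of 21476 symbols, 12795 were current RefSeq names, 8317 were renamed through a synonym pointing to 1 gene, 114 were synonyms of several genes and 250 were kept as given; 42 members were named by current symbols and 13 through synonyms.

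Each array's median was subtracted, and the features of a gene were averaged. The fit over 19909 genes used limma 3.58.1 in R 4.3.3 (intercept only, two-sided) and set a correlation of 0.5 between arrays sharing an RNA sample. That correlation was assumed and not estimated, and it is what leaves replicate 4 without weight. A gene counted as called with a Benjamini-Hochberg adjusted p under 0.05. The fit was tested on simulated data. The simulated arrays were built with the same correlation that the fit sets, so the simulation could not test that setting. Whether samples are separate animals is not stated, so p-values measure only the spread between these samples and arrays. Full values were given for the 3 members of lowest p per step and for Cdk1, Plk1, Aurkb, Bub1, Top2a, Mki67 and Foxm1. They were also given for the gene of lowest p in each list of other mitosis genes. Members outside this rule that are named with values were chosen after the values were seen. These are Gtse1, Cdca3, Ccnb2, Ndc80, Cenpf, Incenp and Cdca8, with Tpx2, Kif23 and Kif11 named through Dixon's test. The members and lists were chosen with earlier results of these data known. Python 3.11.15 and matplotlib 3.10.9 made summaries and figures. Alternatives were turned dye-flip columns, independent arrays, a dye term, no centring, scaled arrays, current symbols only, the median of features, and leaving out each array.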

Additional observations from a re-analysis of the deposited data

Results flagged for a closer look

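On 5 members a single array stood far from the other 3, by Dixon's test at the 95% level. Ndc80, the kinetochore gene, had 1.10 on replicate 2, where the other arrays gave -0.37 to -0.17. Tpx2, the spindle assembly factor, read 0.83 on replicate 2 against -0.35 to -0.15, and Kif23, a cytokinesis kinesin, 0.67 on replicate 2 against -0.38 to -0.25. The spindle motor Kif11 read 0.54 on replicate 1 against -0.36 to -0.26, and Kif2c 0.42 on replicate 4 against -0.32 to -0.20. In all 5 the single array lay above 0 and the other 3 below. Among marker lists, the median of the hindbrain Hox genes was 2.6 on replicate 1 (-0.58 to -0.19 on the others). That of Purkinje cell genes was -0.26 on replicate 1 (0.035 to 0.07 on the others), and that of microglia genes was -0.31 on replicate 3 (0.255 to 0.30 on the others). Such a test picks out about 1 group in 20 by chance, or 4.25 of the 85 sets of 4 values it was run on, and it picked out 8.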

How the results depend on the processing

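The count of called mitosis genes was 0 with each of the 11 alternatives, and so was that over all genes, where the lowest adjusted p was 0.0889 with independent arrays. An unadjusted p under 0.05 was found for 310 genes in the reported fit. The figure was 995 for independent arrays, 621 for the dye term, 139 after replicate 2 was left out and 934 after replicate 4 was. The members' median of -0.03 stayed below 0, at -0.1275 to -0.03 when an array was left out and -0.07 with independent arrays. Medians of the steps are close to 0 and several changed sign. With independent arrays the checkpoint median was -0.05 and that of MuvB and DREAM regulators 0.0475 (0.04 with a dye term). With turned columns the spindle median was 0.0175, the chromosome structure median 0.0833 and the kinetochore median -0.174. With current symbols only, the kinetochore median was -0.034, the chromosome structure median was -0.17, and the list of other condensin genes had no value. Leaving out 1 array gave -0.0893 to 0.10 for the checkpoint, -0.11 to 0.09 for chromosome structure, -0.17 to 0.04 for entry, -0.10 to 0.21 for the kinetochore group, and -0.0875 to 0.0327 for the list of anaphase-promoting complex genes. Turned columns change the sign of replicate 2 in the fitted ratio by construction, which gave Cdc20 -0.04, Nuf2 -0.0633, Cenpe -0.0911, Fam83d -0.0367, Hmmr 0.03, Bub1b 0.14, Mybl2 0.15 and Smc4 0.27. Foxm1 was 0.025 with independent arrays and with a dye term, and Kif20b 0.00188 with scaled arrays. Leaving out 1 array turned the sign of 33 of the 55 members, a count not made over all genes. Among them were Cdca3 (-0.835 to 0.35), Cenpf (-0.385 to 0.48) and Ndc80 (-0.27 to 0.371). The genes with full values that turned were Kif4 (-0.0436 to 0.56), Foxm1 (-0.14 to 0.15), Plk1 (-0.52 to 0.0471), Kif20b (-0.22 to 0.11), Smc4 (-0.34 to 0.09), Nuf2 (-0.12 to 0.24), Prc1 (-0.17 to 0.00571), Ncapd2 (-0.19 to 0.0114), Mki67 (-0.50 to 0.0125) and Bub3 (-0.14 to 0.0857). Beyond the constructions named, the cause was not tested. Each array is itself a pair of genotypes, and the fit of the ratios against 0 uses that pairing. No further pairing was made, because all arrays form 1 group.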
